A study of Mus musculus with 36 samples.

Results

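Aqp4, Slc14a1, Kcnj10, Slc39a12, Mlc1, Hepacam, Agt, Gdf10, Htra1 and Cd38 are 10 genes of the astroglial programme, out of 19909 genes in the deposited table of log2 values. They were chosen by name, because earlier results of these data showed them high in the libraries labelled qNSC and pNSC and low in those labelled aNSC. Differences of the members among those 3 populations are therefore given as a description, with no test. The table holds 36 libraries from C57BL/6 mice aged 8 weeks, with no allele or drug named in the labels. Of these, 28 are cells sorted by flow cytometry from homogenised subependymal zone (SEZ), the neurogenic niche along the lateral ventricle: qNSC, pNSC, aNSC and NPC1 with 4 libraries each, and NPC2, NB1, NB2 and Other with 3 each. The other 8 come from passage 4 neurospheres, floating colonies grown from the SEZ with the mitogens EGF and FGF, whose cells were loaded with the dye DFFDA, cultured for 4 days and sorted into DFFDA_H and DFFDA_L (4 libraries each). The labels give the populations only by these names. No source used here gives the sorting gates, spells out H and L or says whether animals were pooled. The series text says only that the 2 cultured populations differ in proliferative kinetics, and the proliferation gene Mki67, looked up after its values were seen, was 5.32-fold lower in DFFDA_H than in DFFDA_L (log2 difference -2.41, SE 0.16, limma adjusted p = 5.76e-07).

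Adult neural stem cells are glia. When quiescent they share much of their transcriptome with parenchymal astrocytes, including the channels and junction proteins with which astrocytes buffer water and potassium. As they activate and give rise to transit-amplifying progenitors and neuroblasts, this glial programme is replaced by cell division and then by neuronal genes. AQP4 is the water channel of astrocyte endfeet, SLC14A1 carries urea, KCNJ10 (Kir4.1) is the main inwardly rectifying potassium channel of astrocytes, and SLC39A12 imports zinc. MLC1 and HEPACAM (GlialCAM) bind each other at astrocyte junctions, where HEPACAM also holds the chloride channel ClC-2. AGT is the precursor of the angiotensins, GDF10 is a secreted ligand of the TGF beta family, HTRA1 is a secreted serine protease, and CD38 is a membrane enzyme that consumes NAD.

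In GRCm38, Kcnj10 lies on chromosome 1 (172341210 to 172374085), Slc39a12 on chromosome 2 (14388316 to 14494977), Mlc1 on chromosome 15 (88955884 to 88979007), Hepacam on chromosome 9 (37367351 to 37386575), Agt on chromosome 8 (124556534 to 124569706), Gdf10 on chromosome 14 (33923587 to 33937983), Htra1 on chromosome 7 (130936111 to 130985660) and Cd38 on chromosome 5 (43868553 to 43912375). Aqp4 and Slc14a1 lie on chromosome 18. The models of Aqp4, Htra1 and Cd38 overlap another annotated model, but none of the 10 shares exon bases with one.

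Marker sums were set beside the labels. The summed level of 41 astroglial genes that are not members was 16.05 to 16.11 (log2) in qNSC and 15.81 to 16.06 in pNSC, 12.60 to 13.34 in aNSC, 11.21 to 12.09 in NPC1 and NPC2 and 10.75 to 10.93 in NB1, with a median of 10.92 in NB2. The summed level of 12 neuroblast markers was 7.94 to 8.70 in qNSC, 12.26 to 12.66 in NPC1 and NPC2, 13.08 to 13.25 in NB1 and 13.69 to 13.77 in NB2, but also 13.02 to 13.63 in Other. Read depth is not given in the table. The number of genes at a library's floor, the lowest value in it, ran from 1159 to 3932 in qNSC and from 362 to 604 in the 8 cultured libraries. A difference that involves a library at its floor depends on where that floor lies, between -5.06 and -2.18. Because the values look like quantile-normalised log2 CPM, levels are compared here between groups for 1 gene, never between genes.

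Among the fresh populations all 10 members were highest in qNSC and next highest in pNSC, with tight replicates in qNSC. Aqp4 read 9.73, 9.69, 9.63 and 9.62 in the qNSC libraries, 8.75, 9.15, 9.20 and 9.54 in pNSC, and 0.09, 2.51, 2.01 and 2.86 in aNSC. Htra1 read 10.72 to 10.93 in qNSC, 10.26 to 10.78 in pNSC and 4.15 to 4.94 in aNSC. Slc39a12 read 9.05 to 9.21, 8.05 to 9.06 and -1.23 to 1.15 in the same order. These groups lay far apart, and the aNSC minus qNSC difference of means was -7.80 for Aqp4, -6.22 for Htra1 and -8.88 for Slc39a12 on the log2 scale. Slc14a1, Agt, Gdf10 and Cd38 were below 0 in every aNSC library, between -4.92 and -0.07. Their qNSC means were 7.64, 7.21, 6.17 and 6.39, and of 4 aNSC libraries each the ones above their floor numbered 2 for Slc14a1, 3 for Agt, 3 for Gdf10 and 2 for Cd38.

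Mlc1, Hepacam and Kcnj10 were lower in aNSC than in qNSC but still plainly present there. Mlc1 read 10.45 to 10.67 in qNSC and 7.44 to 8.12 in aNSC, Hepacam 9.70 to 9.81 and 7.14 to 7.48, and Kcnj10 5.36 to 5.83 and 3.36 to 3.82. The fold difference of qNSC over aNSC, from the difference of log2 means, was 6.15 for Mlc1, 5.38 for Hepacam and 4.16 for Kcnj10, against 74.5 for Htra1 and 223 for Aqp4. These transcripts were lower still in NB2, with a mean of 3.78 ± 0.26 for Mlc1, 4.19 ± 0.20 for Hepacam and -0.86 ± 0.36 for Kcnj10 (SD, n = 3 each). These 3 had a graded profile, and Htra1, which fell further, also stayed well above the floor in aNSC. In bulk libraries such as these, fewer cells that hold a transcript and less of it in each cell cannot be told apart.

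**Figure D1:**
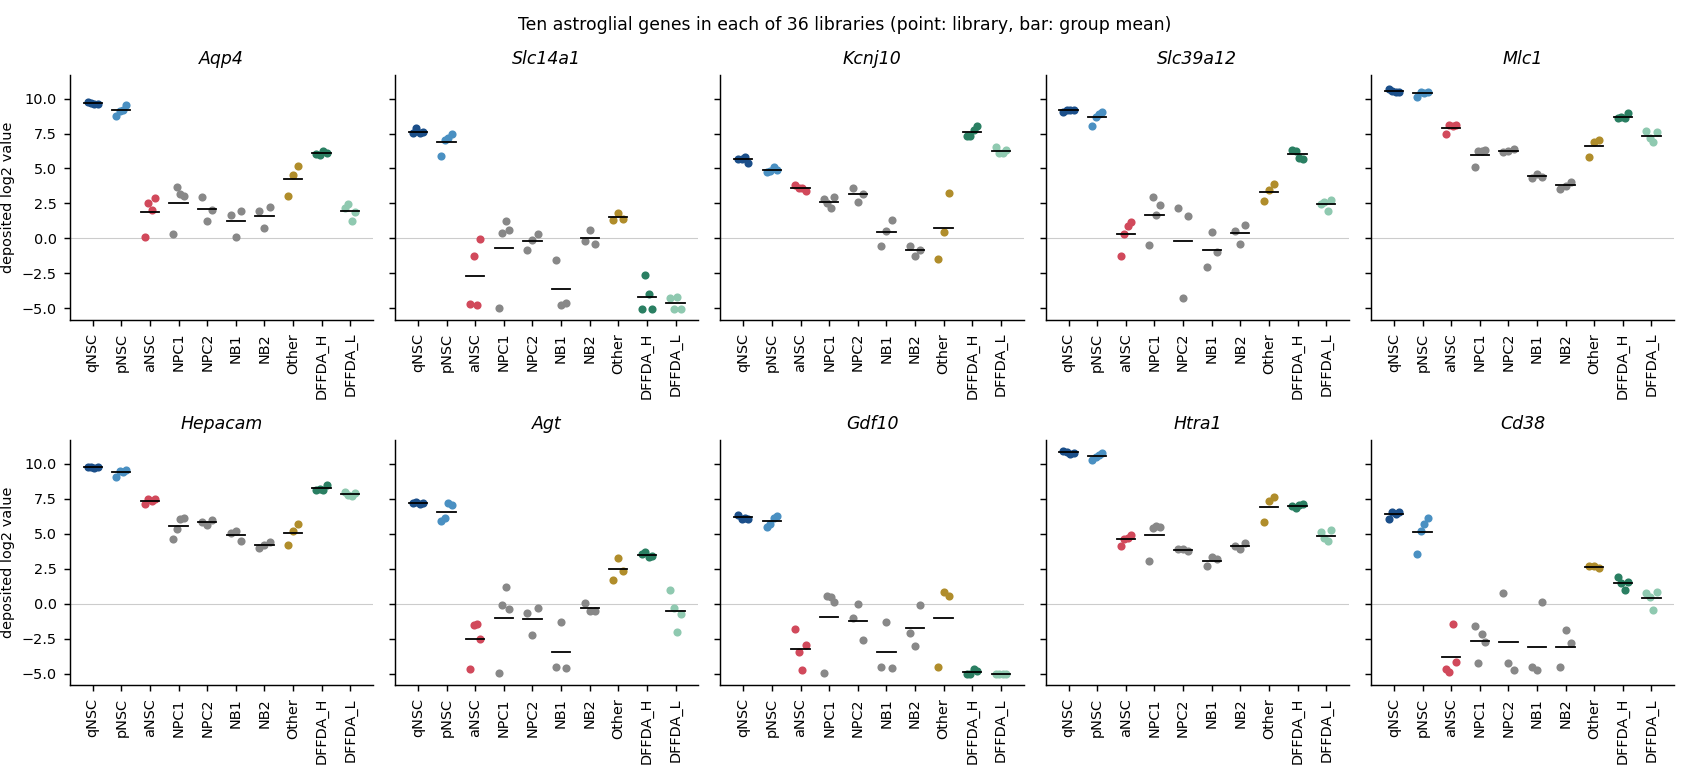
Deposited log2 value (vertical axis) of each member in every library, by population (horizontal axis); points are libraries and bars are group means. Mlc1, Hepacam and Kcnj10 are intermediate in aNSC and lowest in NB2, whereas the other 7 have most of their fall between pNSC and aNSC, and Kcnj10 alone is higher in both cultured populations than in qNSC.

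The cultured populations split the members into 3 patterns, which the next sequences illustrate with 1 gene each. Kcnj10 was higher in DFFDA_H than in qNSC. Agt, like Aqp4, Slc39a12, Mlc1, Hepacam, Htra1 and Cd38, lay between aNSC and qNSC in DFFDA_H. Gdf10, like Slc14a1, was at or near the floor in culture. The 250 bases upstream of the RefSeq start (GRCm38.p6, 5′ to 3′ on the gene's strand) are printed for these 3 because their RefSeq and GENCODE starts coincide, at chr1:172340960-172341209 (+), chr8:124569707-124569956 (-) and chr14:33923337-33923586 (+). Capitals mark each match to a searched motif.
Kcnj10: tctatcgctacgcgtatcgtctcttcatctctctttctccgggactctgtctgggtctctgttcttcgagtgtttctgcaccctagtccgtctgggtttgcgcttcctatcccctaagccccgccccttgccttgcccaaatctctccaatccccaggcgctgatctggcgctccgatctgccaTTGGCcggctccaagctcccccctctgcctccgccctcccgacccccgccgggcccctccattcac
Agt: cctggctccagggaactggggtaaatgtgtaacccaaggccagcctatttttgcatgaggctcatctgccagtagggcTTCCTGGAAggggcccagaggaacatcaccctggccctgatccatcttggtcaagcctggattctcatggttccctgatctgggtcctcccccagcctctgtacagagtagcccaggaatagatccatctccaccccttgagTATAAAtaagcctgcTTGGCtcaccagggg
Gdf10: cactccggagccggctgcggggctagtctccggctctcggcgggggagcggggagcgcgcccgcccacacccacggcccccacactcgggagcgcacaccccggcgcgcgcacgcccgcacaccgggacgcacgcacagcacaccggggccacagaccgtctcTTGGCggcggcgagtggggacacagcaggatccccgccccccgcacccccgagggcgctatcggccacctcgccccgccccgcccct

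The motifs, searched on both strands with overlaps allowed, were those of factor families known from glia and a core promoter element: the NFI motif TTGGC, STAT TTCNNNGAA, SOX ACAAAG, AP-1 TGANTCA and the TATA box TATAAA. Of the 8 members with a RefSeq promoter, 6 hold the NFI motif (Kcnj10, Mlc1, Hepacam, Agt, Gdf10 and Htra1). TTGGC, only a part of the full NFI site, is also in 41.5% of 32851 promoter windows of the same length. The RefSeq start lay inside the GENCODE model for Mlc1 (by 454 bases), Hepacam (255), Cd38 (256), Htra1 (92) and Slc39a12 (82). The windows of Mlc1, Hepacam and Cd38 lay wholly within the gene spans given above, and those of Htra1 and Slc39a12 in part. A match in these windows therefore need not lie upstream of the GENCODE start. The STAT motif is in Agt alone (7.02% of windows) and the TATA box in Agt and Slc39a12 (12.4%). No window of the 8 holds the SOX (16.5%) or AP-1 (6.75%) letters. The NFI match occurs in the Kcnj10, Agt and Gdf10 windows alike, and its relation to the 3 culture patterns was not tested. GC content was 62% in the Kcnj10 window, 55.6% in Agt and 78.8% in Gdf10.

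DFFDA_H and DFFDA_L were compared to ask whether the cultured cells with fewer Mki67 transcripts hold more of the astroglial members. Aqp4, Slc39a12, Kcnj10, Mlc1, Hepacam, Htra1 and Cd38, 7 of the 10 members, were each higher in DFFDA_H by limma (Benjamini-Hochberg adjusted p under 0.05). Over all genes tested, 43.8% were called in this comparison, 21.6% as higher and 22.3% as lower. Slc14a1 and Gdf10 were below the filter on low values in all cultured libraries. Agt passed that filter only through DFFDA_H, the group where it is high, so it is not among the 7 and its difference is given without a test. Over all 10 members the median difference of means was 1.34 on the log2 scale, against -0.01 over all genes tested.

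Among the channels and transporters Aqp4 differed most. It read 6.02, 5.99, 6.28 and 6.08 in DFFDA_H and 2.16, 2.43, 1.25 and 1.86 in DFFDA_L. Aqp4 was 18-fold higher in DFFDA_H (log2 difference 4.17, SE 0.21, 95% interval 3.71 to 4.63, limma adjusted p = 1.25e-07), a difference larger than that of 99.96% of the genes tested. Slc39a12 read 6.31, 6.27, 5.75 and 5.70 against 2.48, 2.64, 1.97 and 2.71, and was 11.8-fold higher (3.56, SE 0.19, limma adjusted p = 1.59e-07). For both genes every DFFDA_H library stood far above every DFFDA_L library. Kcnj10 read 7.35, 7.34, 7.75 and 8.02 against 6.57, 6.12, 6.11 and 6.34, and was 2.52-fold higher (1.33, SE 0.15, limma adjusted p = 2.53e-05). Slc14a1 read -5.06, -2.65, -4.01 and -5.06 against -4.24, -5.06, -4.18 and -5.06, and the groups overlapped. With no filter on low values its difference was 0.44 (95% interval -0.78 to 1.66, limma adjusted p = 0.582).

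The junction pair MLC1 and HEPACAM differed less between the cultured populations than Aqp4. Mlc1 read 8.64, 8.66, 8.61 and 8.94 in DFFDA_H and 7.69, 7.19, 6.93 and 7.61 in DFFDA_L, 2.56-fold higher (1.36, SE 0.15, limma adjusted p = 2.24e-05). Hepacam read 8.12, 8.17, 8.17 and 8.51 against 8.01, 7.77, 7.69 and 7.94, 1.31-fold higher (0.39, SE 0.10, limma adjusted p = 0.00723). The lowest DFFDA_H library for Hepacam was only just above the highest DFFDA_L library.

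Of the secreted products and the NAD enzyme, Agt read 3.54, 3.69, 3.36 and 3.42 in DFFDA_H and 1.01, -0.30, -2.06 and -0.75 in DFFDA_L, a difference of means of 4.03 on the log2 scale. Htra1 read 6.96, 6.84, 7.06 and 7.13 against 5.09, 4.72, 4.45 and 5.24, 4.34-fold higher (2.12, SE 0.15, limma adjusted p = 8.09e-07). The 4 DFFDA_H libraries agreed closely for both genes, and the spread lay in DFFDA_L. Cd38 read 1.92, 1.5, 0.99 and 1.58 against 0.74, 0.45, -0.45 and 0.82, 2.16-fold higher (1.11, SE 0.31, limma adjusted p = 0.0119). Gdf10 was at the floor of -5.06 in all 4 DFFDA_L libraries and read -5.06, -5.06, -4.71 and -4.79 in DFFDA_H. With no filter on low values its difference was 0.15 (95% interval -0.64 to 0.95, limma adjusted p = 0.785). In 1 fit over all 36 libraries the calls of Kcnj10 (adjusted p = 0.0626), Hepacam (0.325) and Cd38 (0.516) were lost. The calls of all 7 held when any of the cultured libraries was left out.

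**Figure D2:**
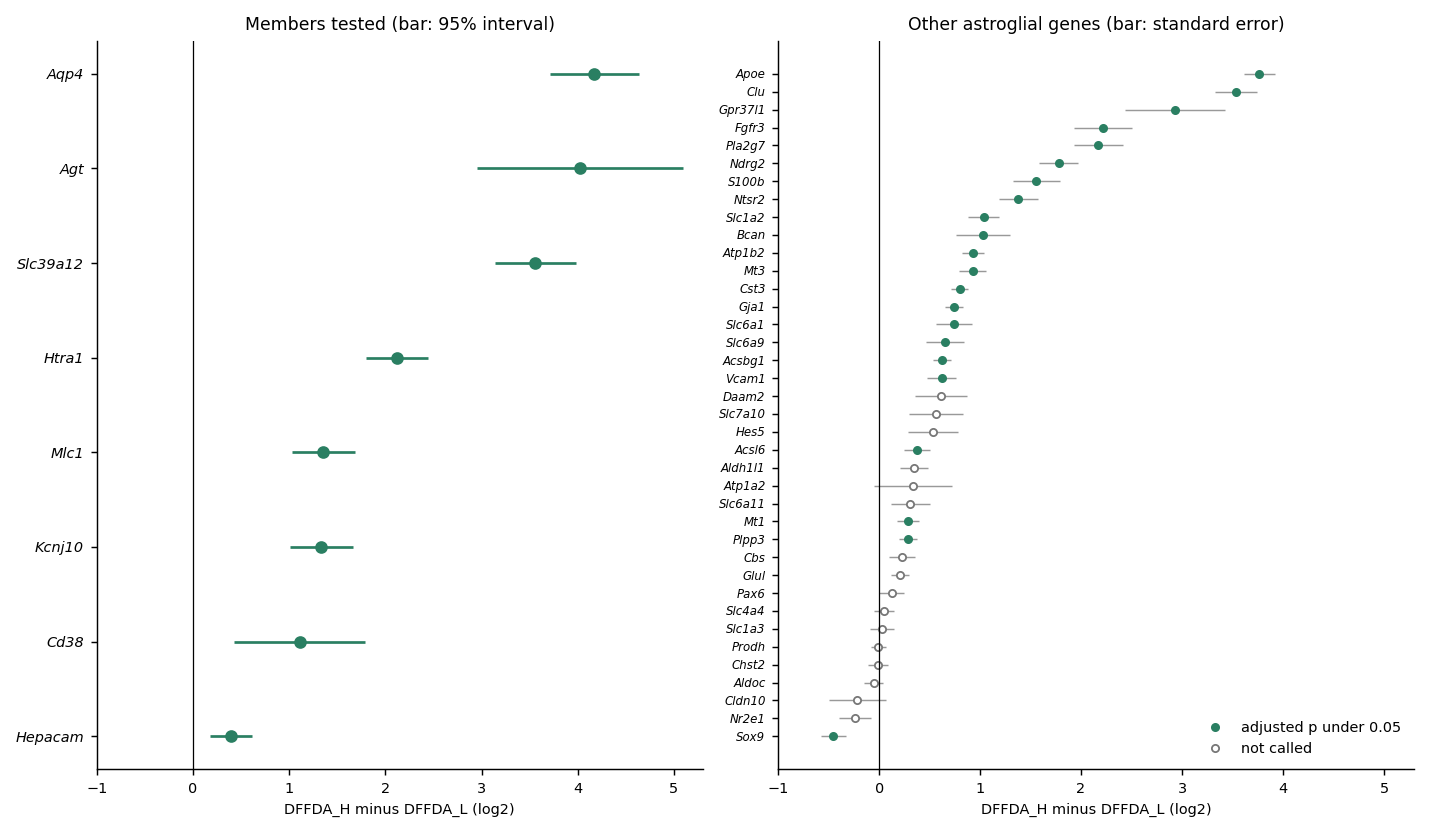
DFFDA_H minus DFFDA_L (log2, horizontal axes) for the 8 members fitted, with 95% intervals (left; Agt entered the fit through DFFDA_H only), and for 38 astroglial genes that are not members, with standard errors (right; filled points have adjusted p under 0.05). Aqp4, Agt and Slc39a12 lie beside Apoe and Clu at the upper end, between 3.54 and 4.17, while Hepacam is at 0.39 and Slc1a3 and Aldoc are near 0. The interval of Agt is drawn but not read as a test.

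Set beside the fresh populations, the DFFDA_H level was a partial one for most members. This is a description, since culture and origin cannot be told apart. Taking the aNSC mean as 0% and the qNSC mean as 100%, DFFDA_H stood at 64.5% for Slc39a12, 62% for Agt, 54.2% for Aqp4, 52.1% for Cd38, 38.4% for Htra1, 36.8% for Hepacam and 30.2% for Mlc1 on the log2 scale. For Agt and Cd38 the aNSC end includes libraries at their floor, so their percentages depend on it. DFFDA_L stood at 0.78% for Aqp4, 4.3% for Htra1 and -21.5% for Mlc1, close to or below aNSC, but at 41.2% for Cd38, 24.4% for Slc39a12, 20.7% for Agt and 20.6% for Hepacam. The DFFDA_H minus qNSC difference of means was -3.57 for Aqp4, -3.71 for Agt and -3.83 for Htra1 on the log2 scale.

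Kcnj10 was the exception. It averaged 7.62 ± 0.33 in DFFDA_H and 6.29 ± 0.22 in DFFDA_L against 5.65 ± 0.20 in qNSC (SD, n = 4 each), and no cultured library overlapped a qNSC library. Its channel partner Kcnj16, whose product forms heteromers with KCNJ10, had the same order: 7.97 ± 0.23 in DFFDA_H and 7.48 ± 0.28 in DFFDA_L against 3.63 ± 1.03 in qNSC. Kcnj16 was 0.50 higher in DFFDA_H than in DFFDA_L (SE 0.14, limma adjusted p = 0.0117). Slc14a1 and Gdf10 went the opposite way, with DFFDA_H means of -4.19 and -4.90 below the aNSC means of -2.70 and -3.25. For both genes the libraries overlapped, and each group included libraries at their floor, so the order of these means depends on it.

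**Figure D3:**
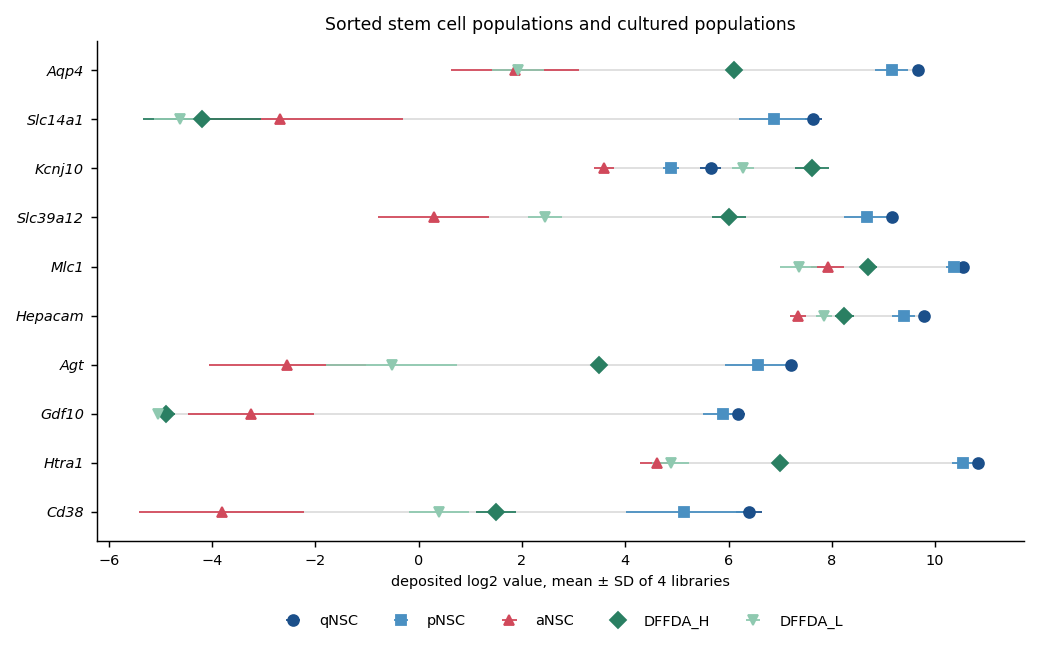
Mean ± SD over 4 libraries of each member (rows) in qNSC, pNSC, aNSC, DFFDA_H and DFFDA_L, on the deposited log2 scale (horizontal axis). DFFDA_H lies between aNSC and qNSC for 7 members, above qNSC for Kcnj10 and below aNSC for Slc14a1 and Gdf10. Slc14a1 and Gdf10 have libraries at their floor in both aNSC and DFFDA_H.

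Other astroglial genes were higher in DFFDA_H too, but not as a block. Of 38 tested, 21 were higher and 1, the transcription factor gene Sox9, was lower (-0.45, SE 0.12, limma adjusted p = 0.00984), with a median of 0.59. The lipid carrier Apoe was 13.6-fold higher (3.76, SE 0.15) and the secreted chaperone Clu 11.6-fold higher (3.54, SE 0.21), with limma adjusted p-values of 6.54e-08 and 2.59e-07, and the protease inhibitor Cst3 was 1.74-fold higher. The glutamate transporter Slc1a3 (0.03, limma adjusted p = 0.855) and the glycolytic gene Aldoc (-0.06, limma adjusted p = 0.642) were not called. Gfap was at -0.10 ± 0.84 in DFFDA_H and -0.38 ± 0.44 in DFFDA_L, against 6.94 ± 0.20 in qNSC (SD, n = 4 each). A second list of astrocyte genes went both ways: of 7 tested, Cyp4f15 (2.32) and Gm973 (0.76) were higher and Chrdl1 (-0.90) and Gria2 (-0.53) lower, with a median of 0.31. Of 5 oligodendrocyte precursor markers 3 were lower, Pdgfra (-2.76), Vcan (-1.19) and Cspg4 (-1.16), and 0 higher. Of 6 ependymal markers 2 were higher and 2 lower, and of 6 neuroblast markers 0 were higher and 2 lower.

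Genes that work with the members were mixed. Of 11 partners of MLC1 and HEPACAM tested, 8 were higher in DFFDA_H and 1, Lrrc8d, was lower. The sodium pump subunit Atp1b1 was 3.61-fold higher (1.85, SE 0.17, limma adjusted p = 5.73e-06) and the gap junction gene Gja1 0.74 higher (SE 0.09). Of the 12 genes of the dystroglycan complex that anchors AQP4 at endfeet, 1 was higher (Dtna, 0.24) and 1 lower (Dtnb, -0.73), whereas Aqp4 was 4.17 higher. The aquaporins Aqp9 (1.26, SE 0.20) and Aqp11 (0.89, SE 0.18) were higher, as were 9 of 19 zinc genes, led by the metallothionein Mt3 (0.92) and the transporters Slc39a11 (0.77) and Slc30a6 (0.59). The urea transporter Slc14a2 was 1.90 higher (SE 0.38, limma adjusted p = 0.00139), although its paralog Slc14a1 was near the floor. Agtrap (0.97) and Atp6ap2 (0.47), of 3 renin-angiotensin genes tested, were higher. Of 16 TGF beta pathway genes, Tgfb2 and Smad3 were higher and Tgfbr1 and Acvr2b lower. Of 5 HTRA family and substrate genes, Htra3 was 2.19 higher (SE 0.16) while Fn1 (-1.5) and Fbln2 (-0.86), which encode matrix proteins, were lower. Of 13 NAD genes 3 were higher, led by Nmnat2 (0.81), and 5 lower, led by Parp1 (-0.89) and Nampt (-0.68).

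The levels in qNSC and pNSC both chose the members, so the differences between them are a description. All 10 means were lower in pNSC, from -0.17 for Mlc1 to -1.25 for Cd38, with a median of -0.50 against -0.05 over all genes. Over all genes 22.3% were called by limma, 8.06% as lower. Kcnj10 read 5.71, 5.70, 5.83 and 5.36 in qNSC and 4.74, 4.81, 5.09 and 4.89 in pNSC, a difference of means of -0.77. Cd38 read 6.03, 6.59, 6.41 and 6.54 against 3.56, 5.17, 5.70 and 6.14, with the lowest pNSC library far below the other 3. The first pNSC library was the lowest of its group for 10 of 10 members and the fourth the highest for 7. In pNSC 12 of 12 neuroblast markers and 6 of 16 microglia markers were higher than in qNSC, and their part in these differences was not tested.

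The labels give no order of the populations, so a step, rise or fall here is only a comparison between named populations. The step from aNSC to NPC1 was not tested, and its differences are a description. The NPC1 minus aNSC difference of means was below 0 for 3 members, Mlc1 (-1.94), Hepacam (-1.80) and Kcnj10 (-0.997). It was above 0 for the other 7, up to 2.02 for Slc14a1 and 2.28 for Gdf10. For Slc14a1 and Gdf10 both groups included libraries at their floor, so these differences depend on it. At the tested steps from NPC1 to NB2 few members were called. Between NPC1 and NPC2 none of the 10 was called (limma, with 1 at an unadjusted p under 0.05; 1.34% of all genes were called, 1.14% as lower). That one was Htra1, which read 3.06, 5.45, 5.54 and 5.51 in NPC1 and 3.94, 3.94 and 3.74 in NPC2 (-1.02, SE 0.41, limma adjusted p = 0.349). Without the first NPC1 library, the lowest of its group for 8 of 10 members, Htra1 differed by -1.62 and was called (adjusted p = 0.00408). From NPC2 to NB1, 2 of 10 members fell, where 7.67% of all genes were called, 3.88% as lower. Mlc1 read 6.15, 6.26 and 6.37 in NPC2 and 4.34, 4.64 and 4.41 in NB1, a fall of 1.80 on the log2 scale (SE 0.27, limma adjusted p = 6.89e-05). Kcnj10 read 3.62, 2.61 and 3.20 against -0.53, 0.53 and 1.31 (-2.70, SE 0.64, limma adjusted p = 0.00843), a call lost without the first NB1 library (adjusted p = 0.0761). Hepacam had the same direction, from 5.60 to 6.02 in NPC2 and 4.47 to 5.17 in NB1, but was not called (-0.92, limma adjusted p = 0.0742). Of 41 other astroglial genes 21 were lower in NB1, Slc1a3 (-1.83) and Vcam1 (-2.93) among them, and 2 higher.

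From NB1 to NB2, 2 of 10 members rose, where 24.6% of all genes were called, 10.4% as higher, and both did so from the floor. Slc14a1 read -1.53, -4.75 and -4.61 in NB1 and -0.19, 0.59 and -0.37 in NB2 (limma adjusted p = 0.0265). Agt read -4.56, -1.29 and -4.61 against 0.05, -0.53 and -0.49 (limma adjusted p = 0.0319). For each gene 2 of the 3 NB1 libraries were at their floor, and neither call held with values below 0 set to 0, where the differences were 0.20 and 0.02. The Slc14a1 call was also lost without the second (adjusted p = 0.109) or the third (0.104) NB1 library or the second (0.0929) or the third (0.0525) NB2 library. The Agt call was lost without the first (0.128) or the third (0.135) NB1 library or without the first (0.0822), second (0.0675) or the third (0.0686) NB2 library. Mlc1 (-0.68, limma adjusted p = 0.0661), Hepacam (-0.72, 0.0922) and Htra1 (1.03, 0.0921) were not called between NB1 and NB2. With the replicate number as a term in the fit Mlc1 (adjusted p = 0.0183) and Htra1 (0.0457) were called.

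The population labelled Other, which the labels do not describe, held more of most members than the mean of NPC1, NPC2, NB1 and NB2. Of the 10, 7 were higher than the equally weighted mean of those 4, where 49.5% of all genes were called, 22.6% as higher and 26.9% as lower. Cd38 read 2.73, 2.67 and 2.52 in Other, above every library of the 4 populations, whose highest was 0.77 (5.53 higher, SE 0.97, limma adjusted p = 4.57e-05). Htra1 read 5.83, 7.33 and 7.64 against means of 3.08 to 4.89 (2.95, SE 0.35, limma adjusted p = 2.61e-07), and Agt 1.72, 3.28 and 2.35 (3.93, SE 0.84, limma adjusted p = 0.000409). Cd38 was at its floor in libraries of NPC2, NB1 and NB2, and Agt in libraries of NPC1 and NB1, so the size of their differences depends on it. With values below 0 set to 0 the difference was 2.56 for Cd38 and 2.37 for Agt, and both calls held. Slc39a12 was 3.10 higher, Aqp4 2.40 and Mlc1 1.5, with limma adjusted p-values of 0.00297, 0.00109 and 2.89e-06. For Slc39a12, Aqp4 and Mlc1 the Other libraries overlapped those of the 4 populations. Mlc1 averaged 6.62 in Other against 5.98 in NPC1, 6.26 in NPC2, 4.46 in NB1 and 3.78 in NB2. Slc14a1 was 2.62 higher (adjusted p = 0.0223), a call lost without the first (0.0506), the second (0.0821) or the third (0.0669) Other library. With values below 0 set to 0 its difference was 1.28.

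Hepacam (-0.09), Kcnj10 (-0.59) and Gdf10 (0.80) were not called. Kcnj10 read -1.49, 0.46 and 3.25 in Other, a wider spread than in any other population, and Gdf10 read -4.56, 0.85 and 0.57. Without the first Other library, the lowest of its group for 9 of 10 members, Gdf10 was 2.56 higher (adjusted p = 0.0442). Endothelial markers were higher in Other for 15 of 15 genes (median 7.74), mural cell markers for 8 of 8 (4.16), microglia markers for 13 of 16 (2.72) and other astroglial genes for 29 of 41 (1.36). The summed endothelial level was 9.90 to 11.36 in Other, with 0 of 15 markers at a mean under 0, and at most 4.72 in any library of the other 9 populations. The part of these cells in the member levels was not tested.

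**Figure D4:**
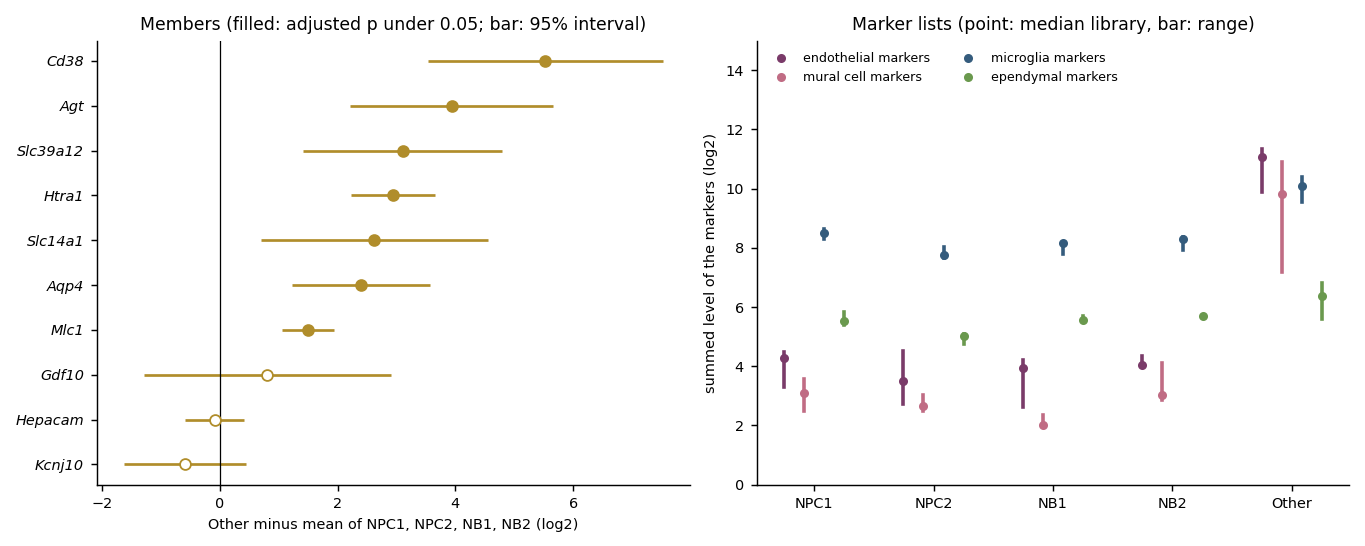
Left, Other minus the mean of NPC1, NPC2, NB1 and NB2 (log2) for each member with its 95% interval, filled where adjusted p is under 0.05; right, summed level (log2) of 4 marker lists by population, with the median library and the range. Cd38 lies highest at 5.53 and Kcnj10 lowest at -0.59, and endothelial and mural markers are highest in Other. The place of Cd38 depends on libraries at their floor: with values below 0 set to 0 its difference is 2.56, under the 2.95 of Htra1.

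Across the 10 group means the members followed each other to different degrees. These correlations are descriptions over 10 groups that include the ones used to choose the members. Pearson's r of a member with the mean of the other 9 was 0.99 for Htra1, 0.98 for Aqp4, 0.97 for Slc39a12 and 0.95 for Agt, and lowest for Kcnj10 (0.48). Slc14a1 and Gdf10, near the floor in culture, were the closest pair (0.99), and Kcnj10 and Slc14a1 the least alike (0.03). Of 12175 genes with a group mean of at least 4.3, the 8 whose profile was most like the mean profile of the members were Abhd3, Cxcl14, Shisa9, Nat8f1, Abhd14b, Il33, Fam213a and Steap3 (r from 0.98 to 0.99). The chemokine gene Cxcl14 averaged 9.07 in qNSC, 0.71 in aNSC, 4.03 in DFFDA_H and 2.44 in DFFDA_L. The cytokine gene Il33 averaged 7.46, 0.30, 1.66 and 0.69.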

How the data were processed

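The data are 1 deposited table with log2 values of 19909 genes, made by the authors from 36 libraries. No header names the unit. The values sum to 987637 to 987910 per library on the linear scale, with medians of 3.53 to 3.56, and so resemble quantile-normalised log2 CPM, in which a change of total RNA cannot be seen. Libraries were prepared from polyadenylated RNA with a SMARTer Ultra Low kit, whose reads carry no strand information, and sequenced on a NextSeq instrument, per the labels' protocols. The submitters' processing notes name HISAT2 and featureCounts, beside limma, FastQC and the trimmers cutadapt and Trimmomatic, with GRCm38 and mm10 as builds. They add neither roles nor versions, and read totals are not given. The 1770 blank lines were dropped. Gene coordinates come from GENCODE M21 (19863 identifiers matched) and promoters from RefSeq (8 of 10 members; the windows of the other 2 are not used here).

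limma 3.58.1 in R 4.3.3 (empirical Bayes, trend and robust) was fitted to the 28 fresh libraries with 1 mean per population (17788 genes) and to the 8 cultured ones (15956 genes). A gene was kept if 3 or more libraries of any group had a log2 value of 0 or more. P-values were adjusted by Benjamini-Hochberg over all genes of a comparison, and adjusted p under 0.05 is a call. There were 6 comparisons. A test of the members was planned for pNSC against qNSC, but both groups chose them, so they are only described there. The fit was tested on simulated data. The labels speak of biological replicates without naming animals or cultures, so a p-value reflects only how these samples vary, which may be technical. Alternatives changed the filter, centring, values below 0, prior, library weights, replicate block, libraries fitted and single libraries left out.

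The members and the 21 gene lists (251 of 297 genes found) were chosen with earlier results of these data known. Named genes are all members, up to 3 genes per list with the smallest p between DFFDA_H and DFFDA_L with others a sentence needs, and the 8 genes with the most similar profile. Mki67 and Gfap were added after their values were seen. The microglia marker count between DFFDA_H and DFFDA_L is not reported here.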

Additional observations from a re-analysis of the deposited data

Results flagged for a closer look

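Within groups of 4 libraries, 59 sets of member values were searched for a library far from the other 3 by Dixon's ratio at its 95% critical value, and 10 were found, where chance gives about 1 in 20. The first NPC1 library was low for 4 members: Slc14a1 (-4.97, at its floor, others 0.39 to 1.25), Gdf10 (-4.97, at its floor, others 0.09 to 0.54), Mlc1 (5.10, others 6.24 to 6.32) and Htra1 (3.06, others 5.45 to 5.54). Mlc1 was also low in the first aNSC library (7.44, others 8.02 to 8.12). The fourth DFFDA_H library was high for Mlc1 (8.94, others 8.61 to 8.66) and Hepacam (8.51, others 8.12 to 8.17). In qNSC the gaps were small in size: Slc39a12 in the first library (9.05, others 9.20 to 9.21), and Hepacam (9.70, others 9.80 to 9.81) and Agt (7.12, others 7.23 to 7.25) in the third.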

How the results depend on the processing

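Between DFFDA_H and DFFDA_L 6995 genes were called, and 5691 to 6954 with a library left out. The calls of the 7 members, Agt not counted, held with any cultured library left out. In 1 fit of all 36 libraries 3234 genes were called, and Kcnj10, Hepacam and Cd38 were not. Where a filter kept only genes averaging 4 or more, 4318 were called. In pNSC against qNSC 3959 genes were called, and 2432 to 4471 with a library left out, fewest without pNSC replicate 1. Library weights called 2234 genes there and the 2 groups alone 1511. Member calls are not given for this comparison, because its levels chose the members. In NPC2 against NPC1 (239 genes, 0 members; 80 to 193 genes and 0 to 1 members with a library left out), library weights called 2180 genes and 1 member and the 2 groups alone 578 genes. In NB1 against NPC2 (1364 genes, 2 members; 763 to 1225 genes and 2 to 3 members with a library left out), the counts were 6234 genes and 5 members with library weights, 2888 genes and 4 members with the 2 groups alone, and 1 member under that same filter. In NB2 against NB1 (4371 genes, 2 members; 3041 to 3938 genes and 0 to 1 members with a library left out), they were 9015 genes and 6 members with library weights, 6690 genes with the 2 groups alone, 0 members with values below 0 set to 0 and 1 under that filter. For Other (8813 genes, 7 members; 6546 to 8881 genes and 6 to 7 members with a library left out), the filter gave 5362 genes and 3 members. Under the filter fewer genes are tested. Over the fresh libraries Kcnj10, Slc39a12, Slc14a1, Agt, Gdf10 and Cd38 averaged under 4, so the filter left them untested. Their calls are absent there for that reason. The 1 member called under it was Mlc1 in NB1 against NPC2 and in NB2 against NB1. In NB2 against NB1 that was a new call (limma adjusted p = 0.0482). The cause of the other shifts was not tested.

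Members that were not called changed sign in some fits. With a library left out, the difference between NPC2 and NPC1 ran from -0.96 to 1.11 for Slc14a1, -1.79 to 0.96 for Cd38, -1.31 to 0.75 for Agt, -1.57 to 0.46 for Gdf10, -2.95 to 0.24 for Slc39a12, -0.0085 to 0.40 for Mlc1 and -0.031 to 0.49 for Hepacam. Slc14a1 was also at -0.45 with values below 0 set to 0 and -0.17 with weights, and Cd38 at 0.26 with values below 0 set to 0. Between NB1 and NPC2 the range was -2.74 to 0.46 for Slc39a12 and -1.92 to 1.42 for Cd38, and between NB2 and NB1 -0.20 to 0.84 for Aqp4 and -0.85 to 1.57 for Cd38, which was at 1.72 with weights. In Other it was -1.84 to 0.52 for Kcnj10, -0.42 to 0.33 for Hepacam and -0.15 to 2.56 for Gdf10, the first 2 above 0 without Other replicate 1. Here too the cause was not tested.

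With the replicate number as a block, NB2 against NB1 gave 4 members called (Mlc1 and Htra1 added), and Hepacam was called in NB1 against NPC2 (adjusted p = 0.0443). The log2 differences of Agt (0.093) and Cd38 (0.018) changed sign in NPC2 against NPC1, and neither was called. The block changed no other member's call. Same-numbered libraries of pNSC and qNSC deviated together weakly (r from 0.06 to 0.14). Each of the 4 numbers correlated more with itself than with any other number there (highest r with another number -0.03 to 0.05), a hint of pairing from the data, not the design. Between DFFDA_H and DFFDA_L r was 0.03 to 0.18, against 0.08 to 0.12 with another number. Since not every pair exceeded 0.1, the numbers were not treated as pairing the samples.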
